A study of Mus musculus with 8 samples.

Results

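The liver of a mouse line lacking the RNA methyltransferase Nsun2 was set against wild-type liver, gene by gene, on 1 Illumina MouseRef-8 v2 bead array a side. Such an array carries gene-specific probes on beads, and its brightness reports the amount of labelled RNA that binds each probe. A gene entered the comparison when its probe was detected, at a detection p-value under 0.01, on at least 1 of the 2 arrays. That held for 8949 of the 16559 genes on the array, of which 7462 were detected in both livers and 1487 in only 1 of them. A looser detection p-value under 0.05 would have admitted 10224 genes.

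The series also holds double knockout liver, which lacks Nsun2 and Dnmt2 together, Dnmt2-/- liver, and embryonic fibroblasts of the same 4 genotypes. All livers came from mice aged 2 months and carried the strain label CBA/C57BL6j x B6;129, a mixed background. Differences in background between the arrays cannot be told apart from genotype. The sources used here do not say whether an array held the RNA of 1 animal or of a pool, how the knockout alleles were made, or the sex of the mice. With 1 array for each genotype no difference between 2 arrays has a replicate check, and no p-value is given for it.

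Nsun2 places a methyl group on cytosines of many transfer RNAs and of some other RNAs, and the mark protects tRNAs from cleavage. Dnmt2, encoded by Trdmt1, methylates a few tRNAs at another cytosine. In liver most transcripts come from hepatocytes, whose expression follows growth hormone, feeding, the time of day and inflammation, and several of these inputs reach the genome through known transcription factors such as STAT5, SREBP, PPARA and REV-ERB.

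Both arrays were similar in quality. Out of 25608 probes, 11623 were detected in the Nsun2-/- liver and 11594 in wild type, with median intensities of 102.1 and 99.8 before normalization. Log2 intensities correlated across probes with r = 0.992. Among 8 hepatocyte markers, 6 were detected in the Nsun2-/- liver and 7 in wild type, with a median log2 signal of 12.44 and 12.80. Skeletal muscle markers were undetected, at 0 of 4 genes. Y-linked Eif2s3y had a log2 signal of 8.76 in the Nsun2-/- liver and 8.79 in wild type. Kdm5d, also Y-linked, was not detected in the Nsun2-/- liver (4.40) and stood at 5.75 in wild type. Xist was 5.21 in the Nsun2-/- liver and not detected in wild type (4.51).

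The targeted gene was close to the detection limit. The Nsun2 probe had an intensity of 87.7 in the Nsun2-/- liver, where it was not detected, and 109.2 in wild type, where it was. On the normalized log2 scale these were 4.10 and 5.35, which bounds the difference at 0.82 or more below wild type, at least 1.77-fold lower. The probe was also undetected in the double knockout liver (4.19) and in the liver labelled Dnmt2-/- (4.41), whose label keeps Nsun2, so that near background it does not settle any label. The lowest signal of any detected probe was 4.53 on the Nsun2-/- array and 4.49 on the wild-type array. The sources used here do not say whether the probe lies in the deleted part of the gene.

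Relatives of Nsun2 differed little between the livers. Nsun4, which acts on mitochondrial ribosomal RNA, had a log2 signal of 9.51 in the Nsun2-/- liver and 9.58 in wild type. Nsun5, which methylates cytosolic ribosomal RNA, stood at 6.85 in the Nsun2-/- liver and 6.90 in wild type. Nop2 was 6.01 in the Nsun2-/- liver and 6.19 in wild type, and Alyref, a reader of methylated cytosine in mRNA, 8.70 and 8.92 in the same order. Trdmt1 was not detected in either liver, at 4.15 in Nsun2-/- and 4.31 in wild type.

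At least 2-fold differences were seen for 259 genes, 2.89% of those compared, of which 126 (1.41%) were higher and 133 (1.49%) lower in the Nsun2-/- liver. Among the 7462 genes detected in both livers, 76 were higher and 62 lower by this measure. The remaining 121 were detected in 1 liver, with 50 higher and 71 lower. Their undetected value was raised to the array's lowest detected signal where it lay lower, which gives a nominal lower limit. Some undetected probes, such as Olig1 at 4.76, lay above that signal, and their difference is as measured. The median difference over all genes was 0.0024 on the log2 scale, and 90.3% of the genes detected in both livers lay within 1.5-fold. Leaving out the background correction gave 44 genes and the authors' deposited values gave 47. Under each of 7 alternatives of background, scaling and choice of probe, 40 genes, 22 higher and 18 lower, were at least 2-fold apart. A difference of 4-fold or more was reached by 24 genes, 12 in each direction. The other liver pairs gave shares of the same order, with 3.78% for double knockout against Dnmt2-/-, 2.84% for double knockout against Nsun2-/- and 2.36% for Dnmt2-/- against wild type. In bulk tissue, fewer cells of a type and less RNA per cell cannot be told apart.

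**Figure D1:**
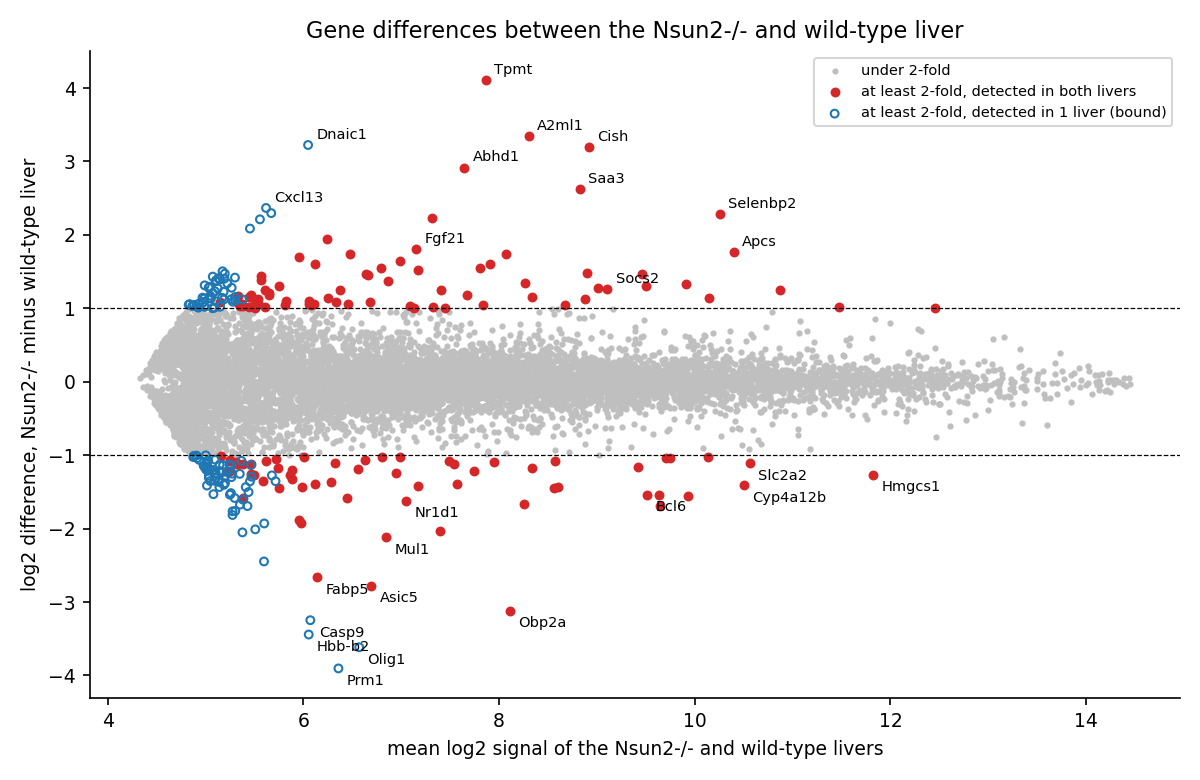
Log2 difference, Nsun2-/- minus wild-type liver (vertical axis), against the mean log2 signal of the 2 livers (horizontal axis) for each gene. Dashed lines mark 2-fold, and filled red points are the 138 genes at least 2-fold apart and detected in both livers. Open blue points are the 121 genes at least 2-fold apart and detected in 1 liver, which crowd at low signal. Their differences are nominal lower limits, or measured values where the undetected signal was not raised.

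Genes far above wild type led the list. Tpmt, the thiopurine S-methyltransferase that inactivates thiopurine drugs, had a log2 signal of 9.92 in the Nsun2-/- liver and 5.81 in wild type, a 17.2-fold difference. A2ml1, an alpha-2-macroglobulin-like protease inhibitor, stood at 9.98 in the Nsun2-/- liver and 6.63 in wild type (10.2-fold higher), and its other detected probe was higher by 3.26. Cish, an inhibitor of cytokine and growth hormone receptor signalling that is itself a STAT5 target, was 10.51 in the Nsun2-/- liver and 7.32 in wild type (9.16-fold higher). Before normalization these 3 genes had intensities of 811, 845 and 1246 in the Nsun2-/- liver, against 118, 144 and 183 in wild type. All 3 probes were detected in both livers, although the wild-type intensities lay not far above the array's median of 99.8.

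Abhd1, a predicted hydrolase, was 7.55-fold higher, with a log2 signal of 9.10 in the Nsun2-/- liver and 6.19 in wild type. Its other probes were higher by 3.02 and 3.56, so all 3 probes showed the difference. Saa3, a serum amyloid A made in inflammation, was 10.13 in the Nsun2-/- liver and 7.51 in wild type (6.15-fold higher). Selenbp2, a selenium-binding protein of liver that is more abundant in male mice, was 11.40 in the Nsun2-/- liver and 9.12 in wild type (4.86-fold higher). The neighbouring family member Selenbp1 differed by −0.06, and reads of such close copies by a hybridization probe are uncertain. Nudt6, a nudix hydrolase, was 4.70-fold higher, at 8.43 in the Nsun2-/- liver and 6.20 in wild type.

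Other genes detected in both livers differed by 3-fold to 4-fold. Paip1, a partner of the poly(A)-binding protein, was higher by 1.94, although its other probe, not detected, differed by 0.30. Fgf21, a fasting hormone of the liver, was higher by 1.80, Apcs, the pentraxin serum amyloid P, by 1.77 and Them4, a thioesterase, by 1.75. The mitochondrial carrier Slc25a30 was higher by 1.74, Rgs5, a regulator of G protein signalling, by 1.70, Sfi1 by 1.64 and the carbonyl reductase Cbr3 by 1.60. The other probes of Sfi1 (−0.02) and Cbr3 (0.30) were not detected. Apcs was the most abundant of these, at 11.29 in the Nsun2-/- liver and 9.52 in wild type. Rgs5 and Cbr3 lay low in wild type, at 5.10 and 5.32, where the background correction weighs most.

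Transcripts seen only in the Nsun2-/- liver of this pair include genes of other tissues. Dnaic1, a dynein chain of motile cilia, was at least 9.35-fold higher, at 7.72 against an undetected 4.38 in wild type, and its other probe was higher by 1.92. The B cell chemokine Cxcl13 was at least 5.16-fold higher, at 6.86 in the Nsun2-/- liver and an undetected 4.38 in wild type. Fmr1nb, Cox6b2 and the meiotic cohesin Rec8, all best known from testis, were higher by 2.30 as measured, at least 2.21 and at least 2.09. The other probes of Fmr1nb (0.40) and Cox6b2 (−0.05) were undetected. The remaining large bounds belonged to Smpdl3b, a phosphodiesterase-like membrane protein (at least 2.84-fold higher), Car11 (1.47) and the guanylate-binding protein Gbp11 (1.43).

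Among the genes below wild type, Obp2a, an odorant-binding protein, had the largest measured difference, with a log2 signal of 6.55 in the Nsun2-/- liver and 9.67 in wild type (8.66-fold lower). Asic5, an ion channel that bile acids open, was 5.31 in the Nsun2-/- liver and 8.08 in wild type (6.84-fold lower). Fabp5, a fatty acid-binding protein, was 4.81 in the Nsun2-/- liver and 7.47 in wild type (6.34-fold lower), while its other probe, not detected, differed by −0.04. Mul1, a ubiquitin ligase of the mitochondrial outer membrane, was 4.33-fold lower and Tsc22d1, a TGF-beta-induced transcriptional regulator, 4.09-fold. The other probe of Tsc22d1, not detected, differed by −0.02. Gna14, a G protein subunit, differed by −1.92 and Mrps27, a protein of the mitochondrial ribosome, by −1.89 on the log2 scale. Both were near 5 in the Nsun2-/- liver, at 5.01 each, and at 6.94 and 6.90 in wild type. With the background correction left out the differences were −0.87 and −0.85, short of 2-fold.

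Several lower genes are abundant in liver. Thrsp, a regulator of fat synthesis that responds to thyroid hormone and carbohydrate, had a log2 signal of 8.80 in the Nsun2-/- liver and 10.49 in wild type (3.23-fold lower). Ugt3a1, a sugar transferase of drug and steroid metabolism, was 9.15 in the Nsun2-/- liver and 10.71 in wild type, and the thioesterase Them7 8.87 in the Nsun2-/- liver and 10.40 in wild type. The glucose transporter of hepatocytes, Slc2a2 (GLUT2), was 10.01 in the Nsun2-/- liver and 11.12 in wild type, 2.16-fold lower, and its other probes gave −1.39 and −1.14. All 4 transcripts had a signal above 8.5 in both livers. Olfml1 (−1.66), the cyclin Ccng2 (−1.59) and Ppp1r14a (−1.58) were also lower, although the other detected probe of Ppp1r14a differed by −0.26.

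Among genes detected in 1 liver, Prm1, a protamine that packs sperm DNA, fell furthest, at or below −3.90 on the log2 scale (a bound). Olig1, a transcription factor of oligodendrocytes, followed at 12.3-fold lower as measured. Prm1 was an undetected 4.29 in the Nsun2-/- liver and 8.43 in wild type, and Olig1 an undetected 4.76 and a detected 8.38 in the same order. The beta globin gene Hbb-b2 was at least 10.9-fold lower, an undetected 4.14 in the Nsun2-/- liver and 7.97 in wild type. Another beta globin of the cluster, Hbb-bt, differed by 0.63 and the alpha globin Hba-a1 by −0.55, so the globins did not differ alike, and these close copies are uncertain on an array. Casp9, the initiator caspase of the mitochondrial death pathway, differed by −3.25 or below, at an undetected 4.37 in the Nsun2-/- liver and 7.77 in wild type, but its other 2 probes were undetected and differed by −0.11 and 0.32. Crym, which binds thyroid hormone, differed by −2.45 or below, Akr1e1 by −2.05, the tropomyosin Tpm2 by −2.01 and Prex2 by −1.93. Prex2 had another detected probe at 0.08, and the other probes of Tpm2, not detected, differed by −0.26 and −0.25. Of the 259 genes, 40 had another detected probe, and in 10 of these it differed in the opposite direction.

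Double knockout liver against Dnmt2-/- liver gives another pair that differs by the Nsun2 genotype and shares no array with the first. In it 3.78% of 8979 genes differed at least 2-fold. It is not a repeat, since both of its livers lack Dnmt2 and since Nsun2 was not detected in the liver labelled Dnmt2-/-. Of 110 genes that were at least 2-fold higher in Nsun2-/- liver and had a value in this pair, 16 (14.5%) were also at least 2-fold higher there and 18 (16.4%) at least 2-fold lower. Of 109 lower genes, 15 (13.8%) were again lower and 10 (9.17%) higher. Over the genes of the main comparison, 1.89% were at least 2-fold higher and 1.87% lower in this pair. Taken over direction alone, 57.5% of the 219 genes kept their direction, against 54.0% of 8124 genes in all. Across the 7038 genes detected in all 4 livers the differences of both pairs correlated with r = 0.124, as a description, since genes are not independent replicates.

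**Figure D2:**
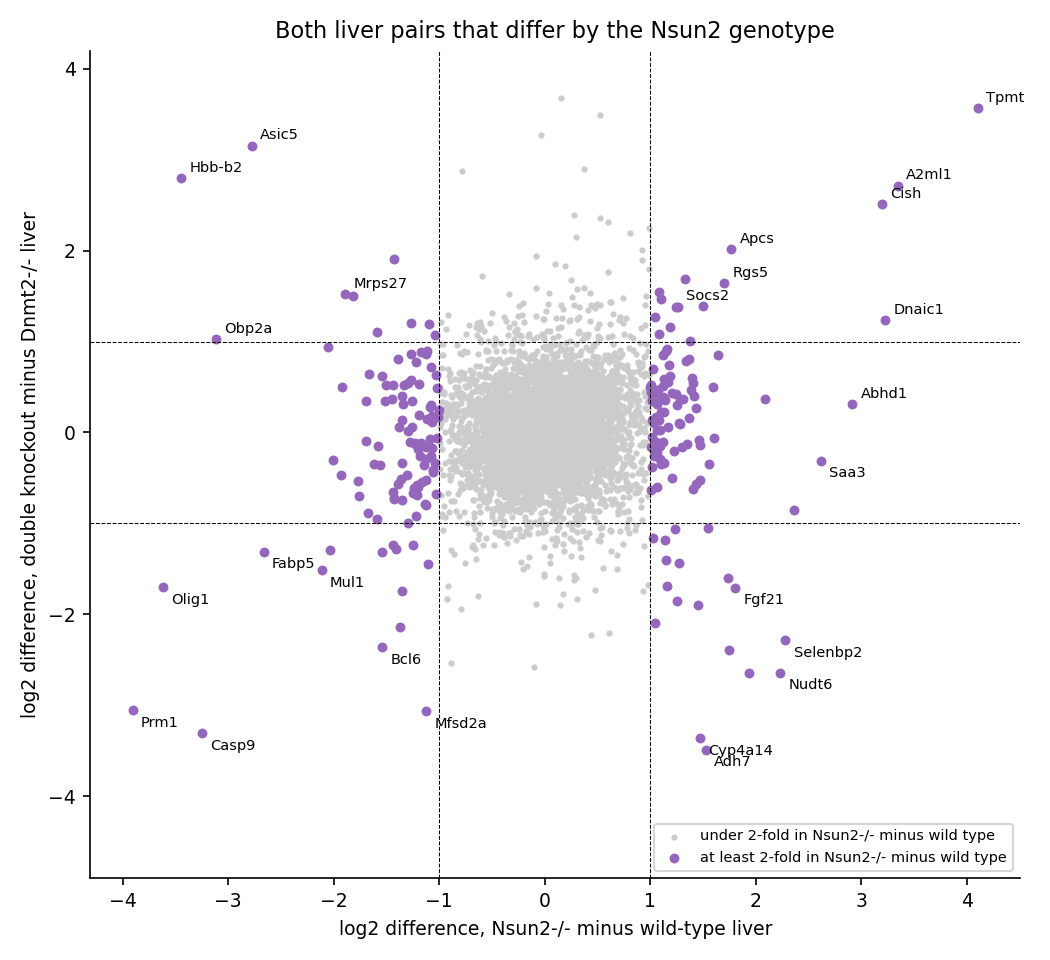
Log2 difference of each gene in Nsun2-/- minus wild-type liver (horizontal) and in double knockout minus Dnmt2-/- liver (vertical), with dashed lines at 2-fold. Purple points are genes at least 2-fold apart in the first pair; Tpmt, A2ml1 and Cish lie at the upper right, Prm1 and Casp9 at the lower left, and Selenbp2 and Nudt6 at the lower right.

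In all, 31 genes were past 2-fold the same way in both pairs, or 11 with no background correction. The 16 that were higher in both livers without Nsun2 include the 3 leaders. Tpmt had log2 signals of 9.92 and 9.85 in the Nsun2-/- and double knockout livers, against 5.81 and 6.28 in the wild-type and Dnmt2-/- livers. A2ml1 was 9.98 and 9.69, against 6.63 and 6.98, in the same livers. Cish was 10.51 and 9.97, against 7.32 and 7.47. In each of these 3 genes both livers lacking Nsun2 lay more than 5-fold above both livers of the other genotypes. The 3 genes had the largest increases of the first pair among genes detected in both of its livers. They are shown here as members of the set that differed in both pairs. Both choices favour such a gap, and its share over all genes was not counted. Apcs followed with 11.29 and 11.50 in the Nsun2-/- and double knockout livers, against 9.52 and 9.48 in wild type and Dnmt2-/-. Rgs5 was 6.80 and 7.66 in the livers without Nsun2, against 5.10 and 6.02.

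Smaller positive differences in both pairs were seen for Socs2, an inhibitor of growth hormone signalling, at 9.73 and 9.65 in the Nsun2-/- and double knockout livers, against 8.48 and 8.26 in wild type and Dnmt2-/-. Gadd45g, a stress-induced regulator of growth arrest, was 11.50 and 10.69, against 10.25 and 9.30. Serpina4-ps1, a pseudogene of the serpin cluster, was 10.58 and 10.30, against 9.25 and 8.61. Groups of 2 livers did not overlap for any of these 3 genes. All 3 were picked for differing in both pairs, which favours such separation, so it is not separate evidence. The share of all genes that separate this way was not counted. Inhba, a subunit of activin, differed by 1.19 in Nsun2-/- minus wild type and 1.16 in double knockout minus Dnmt2-/-. The others were Dnaic1 (3.22 and 1.23), Taco1 (1.38 and 1.01), 3110082I17Rik (1.10 and 1.47), Ap5b1 (1.09 and 1.08), Camk2b (1.08 and 1.55) and the trefoil peptide Tff3 (1.04 and 1.27), in the same order of pairs, and Smpdl3b, at least 2.84-fold and 2.63-fold higher.

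The 15 genes lower in both pairs include Bcl6, a transcriptional repressor that STAT5 holds down in liver. Bcl6 had log2 signals of 8.74 and 7.52 in the Nsun2-/- and double knockout livers, against 10.28 and 9.88 in wild type and Dnmt2-/-. Cyp4a12b, a fatty acid hydroxylase of male liver, was 9.80 and 10.35, against 11.21 and 11.63. Mul1 was 5.79 and 6.30, against 7.90 and 7.81, and Tsc22d1 differed by −2.03 in Nsun2-/- minus wild type and −1.29 in double knockout minus Dnmt2-/-. For Bcl6, Cyp4a12b and Mul1 the livers lacking Nsun2 lay below the other livers with no overlap. These genes, too, were picked for differing in both pairs, so the separation largely reflects that choice. How many of all genes separate in this manner was not counted. Casp9 was undetected in both livers without Nsun2 (4.37 and 4.45) and stood at 7.77 in wild type and 7.79 in Dnmt2-/-. Prm1 was likewise undetected at 4.29 and 4.37, against 8.43 and 7.54.

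The remaining genes lower in both pairs were mostly less abundant. Fabp5 differed by −2.66 in Nsun2-/- minus wild type and −1.31 in double knockout minus Dnmt2-/-, Olig1 by −3.62 and −1.70, and Mfsd2a, a transporter of phospholipid-bound fatty acids that fasting induces in liver, by −1.13 and −3.07. Dct, an enzyme of pigment synthesis, differed by −1.37 and −2.14, the serotonin receptor Htr1d by −1.54 and −1.31 and the chemokine Ccl21a by −1.25 and −1.24. Fastkd3, an RNA-binding protein of mitochondria, differed by −1.43 and −1.24, and the zinc finger genes Zfp738 by −1.35 and −1.75 and Zfp367 by −1.11 and −1.45. The other detected probe of Zfp367 was higher by 0.72 in Nsun2-/- liver, so its probes disagree.

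**Figure D3:**
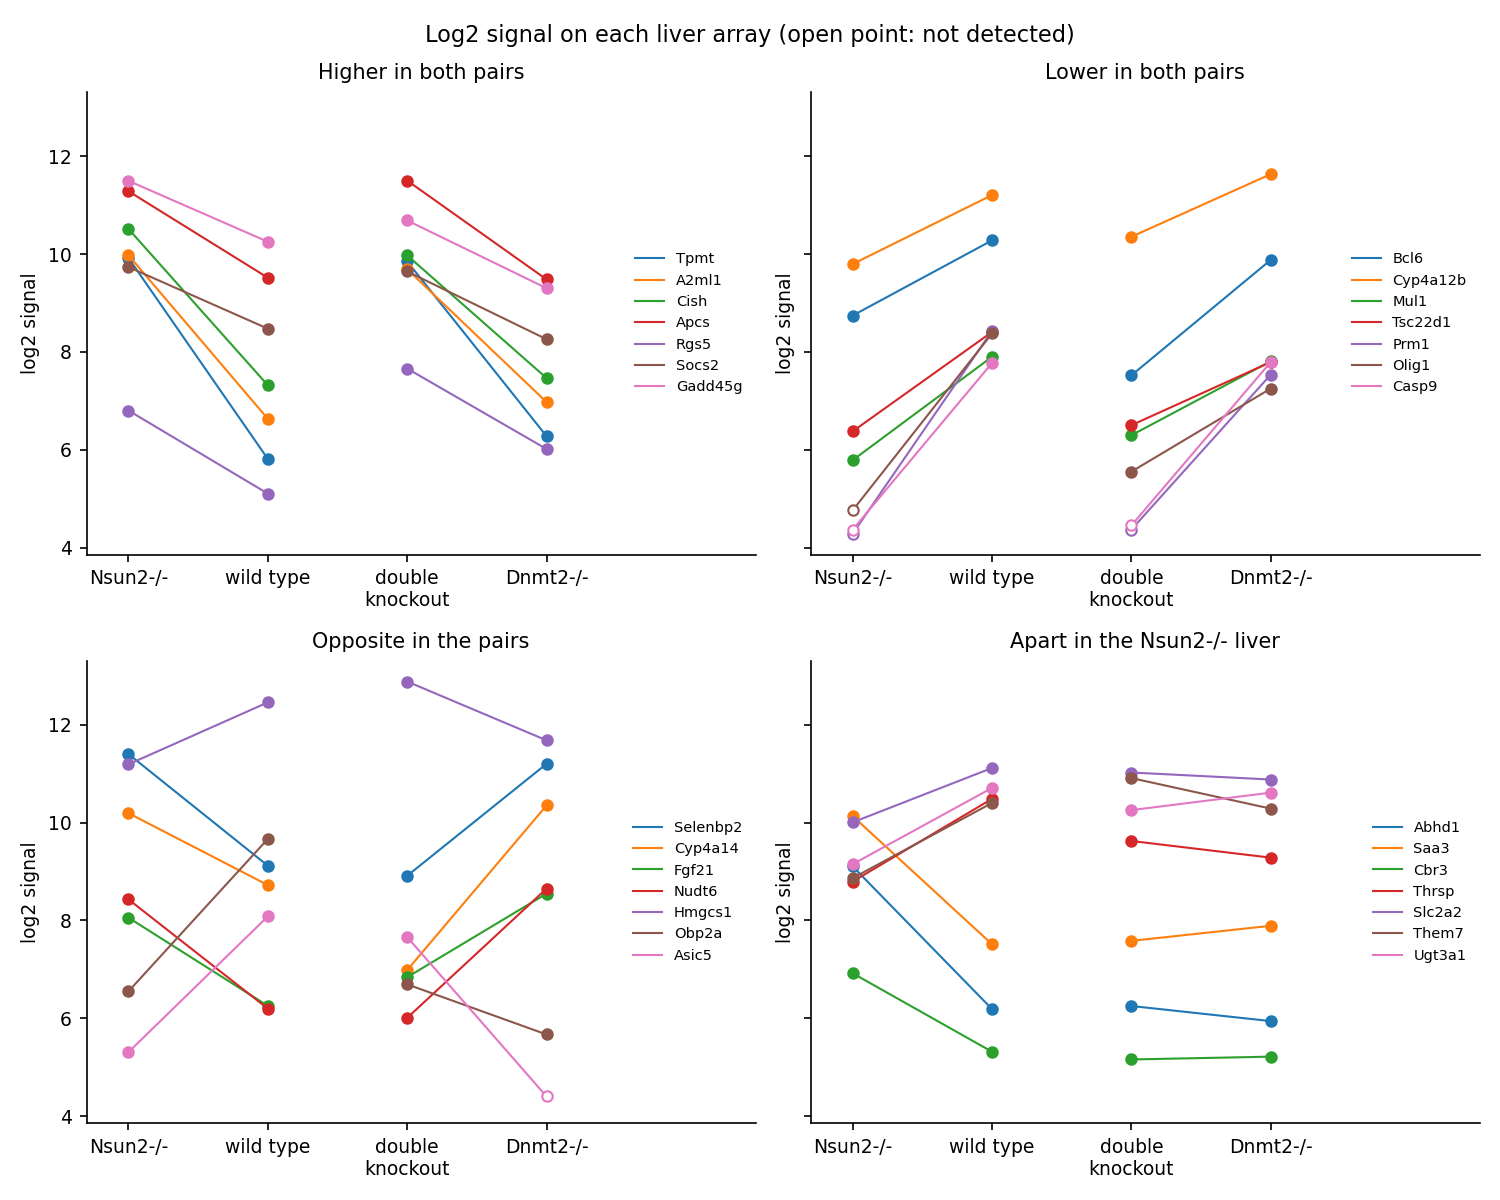
Log2 signal (vertical axis) of 28 genes on each liver array, 1 point an array, with Nsun2-/- joined to wild type and double knockout joined to Dnmt2-/-. Open points were not detected. The upper panels show genes that differ the same way in both pairs (Tpmt 9.92 and 9.85 against 5.81 and 6.28), and the lower left genes that differ in opposite ways. At the lower right are genes for which the Nsun2-/- liver was the highest or lowest of all. For Thrsp it did not stand apart, at 8.80, with Dnmt2-/- at 9.28, double knockout at 9.62 and wild type at 10.49.

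A further set of 18 genes was at least 2-fold higher in Nsun2-/- minus wild type and at least 2-fold lower in double knockout minus Dnmt2-/-. Selenbp2 was 11.40 in Nsun2-/-, 9.12 in wild type, 8.91 in double knockout and 11.20 in Dnmt2-/- liver. Cyp4a14, a fatty acid hydroxylase induced by PPARA, was 10.19 in Nsun2-/-, 8.72 in wild type, 6.98 in double knockout and 10.35 in Dnmt2-/- liver. Nudt6 was 8.43, 6.20, 6.01 and 8.65, and Fgf21 8.06, 6.25, 6.84 and 8.55, in the same order of livers. The single knockouts were thus the high livers for all 4 genes, and wild type and the double knockout the low ones. Adh7, Them4, Paip1, Slc25a30, Gpat3, Acot3, Abcd3, Rps3a1, Ctsc, Nt5e, Sucnr1, Kansl1l, Cd300ld and Il1f10 made up the other 14 of the 18 genes higher in Nsun2-/- and lower in the second pair.

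The reverse order held for 10 genes, low in the Nsun2-/- liver and high in the double knockout relative to their partners. Asic5 was 5.31 in Nsun2-/-, 8.08 in wild type, 7.66 in double knockout and an undetected 4.40 in Dnmt2-/- liver, and Hbb-b2 an undetected 4.14, 7.97, 7.58 and an undetected 4.78 in the same order. Hmgcs1, the enzyme that feeds the mevalonate pathway, was 11.19, 12.46, 12.88 and 11.68. Saa1, an acute phase protein, was 6.46, 7.88, 8.09 and 6.18. Obp2a followed another order, since only wild type was high, at 9.67, with the other livers between 5.67 and 6.69. The remaining members were Mrps27, Tmod4, Ccng2, Acpp and Serpina11.

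The Nsun2-/- liver also stood apart by itself for some genes. Abhd1 was 9.10 in Nsun2-/- liver and 6.25, 5.94 and 6.19 in double knockout, Dnmt2-/- and wild-type liver. Saa3 was 10.13, against 7.58, 7.89 and 7.51 in the same order. Cbr3 was 6.92, against 5.16, 5.22 and 5.32. Slc2a2 was 10.01 in the Nsun2-/- liver, below 11.02, 10.88 and 11.12, and Ugt3a1 9.15, below 10.26, 10.61 and 10.71. These genes differed by less than 1.3-fold between the double knockout and the Dnmt2-/- liver.

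The effect of the Nsun2 genotype over all 4 livers was tested with limma, together with the fibroblasts, on the 10491 genes with detection on 2 or more of the 8 arrays. The fit estimates the mean of both liver pairs, and its spread is the departure of arrays from additive effects of both genotypes, on 2 residual degrees of freedom, not the spread between animals. With Benjamini-Hochberg adjustment at 0.05 it called 0 genes (0.0%), and 662 had an unadjusted p under 0.05. The smallest adjusted p by limma was 0.0797 for Casp9, with an estimate of −3.37 and a standard error of 0.18. A2ml1 (3.03, SE 0.22) and Prm1 (−3.66, SE 0.27) had an adjusted p of 0.130 by limma, Tpmt (3.84, SE 0.34) of 0.209 and Cish (2.85, SE 0.27) of 0.251. Undetected values entered the fit as measured, and Casp9 and Prm1 were undetected in both livers lacking Nsun2. On simulated data with known changes, this fit recovered 0% of genes changed by 1 and 41% of those changed by 2 on the log2 scale, with 0 false calls.

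Next in order came Rgs5 at 1.67 (SE 0.17) and Apcs at 1.89 (SE 0.21), with adjusted p-values of 0.292 and 0.338 by limma. Mul1 (−1.81), Htr1d (−1.55), Smpdl3b (1.53), Cyp4a12b (−1.35), Socs2 (1.32), Fastkd3 (−1.34) and Gadd45g (1.31) all had an adjusted p of 0.409 by limma. For Selenbp2, whose pairs oppose each other, the same estimate was −0.0032 with a standard error of 1.03, and for Hmgcs1 −0.032 with 0.57. The difference of the Nsun2 effect between liver and fibroblasts gave 0 calls by limma as well, with 549 genes at an unadjusted p under 0.05 and a smallest adjusted p of 0.844.

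Growth hormone acts on hepatocytes through STAT5, which switches on Cish, Socs2, Socs3 and Igf1, represses Bcl6, and sets much of the difference between male and female liver. In the list of growth hormone and STAT5 targets that are mostly male-biased, 33 of 38 genes on the array were detected, 10 were higher and 23 lower, with a median difference of −0.15. In the list were 3 genes at least 2-fold higher, namely Cish, Selenbp2 and Socs2, and 3 at least 2-fold lower, namely Bcl6, Cyp4a12b and the ferritin receptor Scara5 (−1.36 or below). Over all genes 2.89% were called. Selenbp2 (−2.29) and Scara5 (0.40) had the opposite sign in double knockout minus Dnmt2-/-. Socs3 was 7.92 in the Nsun2-/- liver and 7.18 in wild type, short of 2-fold, and differed by 1.48 in double knockout minus Dnmt2-/-. Igf1 was 12.14 in the Nsun2-/- liver and 12.22 in wild type, and the growth hormone receptor Ghr 11.54 and 11.77. Cish, Socs2 and Bcl6 thus differed at least 2-fold, while Igf1 and the receptor lay within 0.3 on the log2 scale. Cyp4a12a, a near copy of Cyp4a12b, differed by −0.15 in Nsun2-/- minus wild type and by −1.37 in double knockout minus Dnmt2-/-.

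Promoter sequences of Cish and Bcl6 are shown because both genes differed at least 2-fold in both pairs and both are known STAT5 targets. They are from RefSeq on GRCm38.p6, 5′ to 3′ on the gene's strand, at chr9:107296559-107296680 (plus strand) and chr16:23981354-23981463 (minus strand). Capitals mark the letters TTCNNNGAA, a pattern that reads the same on both strands and that STAT5 is known to bind.
Cish: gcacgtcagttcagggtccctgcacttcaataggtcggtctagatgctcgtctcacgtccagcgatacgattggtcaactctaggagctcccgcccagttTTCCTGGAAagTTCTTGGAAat
Bcl6: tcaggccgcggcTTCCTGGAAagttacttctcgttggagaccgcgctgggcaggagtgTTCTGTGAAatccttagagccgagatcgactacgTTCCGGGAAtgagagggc
Of 9 genes looked up in the table, 6 had an entry. The Cish stretch holds 2 matches and the Bcl6 stretch, from 1 of the 2 windows of that gene, 3, none of them overlapping. Of 32851 RefSeq promoter windows of 300 bases, 8.30% hold at least 1 match, so the pattern is common. The window of Socs3 holds a match, those of Igf1, Tpmt and A2ml1 hold 0, and a match is a description of the letters, not of binding.

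Female-biased liver genes had 17 detected members of 36 on the array, 12 higher and 5 lower, with a median of 0.53. Acot3 (1.16) and the coumarin hydroxylase Cyp2a5 (1.01) were at least 2-fold higher and the proteoglycan Gpc1 (−1.22) was 2-fold lower. Cyp2a5 is abundant, at 12.96 in the Nsun2-/- liver and 11.95 in wild type. Of the members, 16 were detected in the Nsun2-/- liver and 14 in wild type, so some entered through 1 liver alone. With no filter on detection the median was 0.07. With the authors' deposited values it was 0.18, and in double knockout minus Dnmt2-/- it was 0.17. Kdm5d and Xist also differed between these livers, as given above, while Eif2s3y did not, and the part of sex-linked expression in this median was not tested.

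PPARA is the receptor that switches on fatty acid breakdown in fasting. The list of its targets and fatty acid oxidation genes, with Ppara itself, had 46 detected members of 53 on the array. Of these 26 were higher and 19 lower, with a median of 0.06. At least 2-fold higher were Fgf21 (1.80), Cyp4a14 (1.47), the thioesterase Acot3 (1.16) and the peroxisomal transporter Abcd3 (1.02), and Cyp4a12b was lower (−1.41). Among all genes compared, the background for this and the other lists, 1.41% were at least 2-fold higher and 1.49% lower. In double knockout minus Dnmt2-/- the list median was −0.34, with 40 genes lower, and Fgf21, Cyp4a14, Acot3 and Abcd3 were all at least 2-fold lower there. The 2 pairs therefore gave opposite values for the genes that led this list.

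Cholesterol synthesis genes, which SREBP2 switches on when sterols are scarce, were mostly below wild type. Of 20 detected genes 3 were higher and 17 lower, with a median of −0.40, against 4475 higher and 4417 lower and a median of 0.0024 over all genes. Hmgcs1 was 11.19 in the Nsun2-/- liver and 12.46 in wild type, 2.40-fold lower, and Nsdhl, a later enzyme of the pathway, 6.09 in the Nsun2-/- liver and 7.16 in wild type. Idi1 (−0.87), Mvd (−0.78) and Dhcr7 (−0.65) were short of 2-fold, and the transcription factor Srebf2 (0.32) was higher. The other 3 probes of Nsdhl, all detected, differed by −0.91, −0.60 and −0.37. In double knockout minus Dnmt2-/- the median of the list was 0.24, with 14 genes higher and 6 lower.

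Fatty acid synthesis genes under SREBP1 and ChREBP had a median of −0.18, with 10 of 30 detected genes higher and 20 lower. Fabp5, Thrsp and Srebf1, which encodes SREBP1, were at least 2-fold lower. Srebf1 was 6.95 in the Nsun2-/- liver and 8.02 in wild type, while its other probe, not detected, differed by 0.15. The rate-limiting enzyme of bile acid synthesis, Cyp7a1, was 6.88 in the Nsun2-/- liver and 8.27 in wild type, 2.62-fold lower, and differed by 0.81 in double knockout minus Dnmt2-/-. It was the 1 gene past 2-fold among 29 detected bile acid genes.

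The circadian list had 18 detected genes, 7 higher and 11 lower, with a median of −0.08. Nr1d1, which encodes the repressor REV-ERBα, was 6.24 in the Nsun2-/- liver and 7.86 in wild type (3.07-fold lower), and its other probe gave −1.63. Cry2 (−1.20) and Bhlhe40 (−1.17), further repressors of the clock, were also at least 2-fold lower, and Nr1d2 (−0.77) and the output factor Dbp (−0.76) less so. Arntl, the activator that REV-ERBα represses, was 8.32 in the Nsun2-/- liver and 7.89 in wild type. In double knockout minus Dnmt2-/- Dbp differed by −1.44 and Nr1d1 by −0.35, and 15 genes of the list were lower. Time of day at dissection, not stated in the labels, cannot be told apart from genotype.

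Acute phase genes did not differ alike. Saa3 and Apcs were at least 2-fold higher and Saa1 was 2.68-fold lower, while Saa2 (−0.78) and Lcn2 (0.99) were short of 2-fold. Of 26 detected members 11 were higher and 14 lower, with a median of −0.03. Saa1 and Saa2 are near copies, and both were higher in double knockout minus Dnmt2-/-, by 1.91 and 2.87. Neutrophil markers stood beside these genes, with S100a8 higher by 1.01 and S100a9 by 0.60, while the third detected marker, Elane, differed by −0.04. The summed signal of the 6 neutrophil markers was 416 in the Nsun2-/- liver and 262 in wild type, with 2 and 3 of them detected. Their part in the acute phase values was not tested.

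Interferon-stimulated genes, which restrain viruses, were 32 higher and 12 lower among 44 detected, with a median of 0.22 and 0 genes at 2-fold. Usp18 (0.95), Igtp (0.87) and Irgm1 (0.86) were the highest and Oasl1 (−0.80) the lowest. Irgm1 was abundant, at 12.27 in the Nsun2-/- liver and 11.41 in wild type. In double knockout minus Dnmt2-/- the list had 24 genes higher and 20 lower, with a median of 0.05, and Usp18 (−0.10), Igtp (0.24) and Irgm1 (−0.67) did not share 1 direction. Genes of MHC class II, which present antigen on macrophages and B cells, were 6 higher and 1 lower among 7, with a median of 0.43, and H2-Ab1 stood at 9.70 in the Nsun2-/- liver and 9.17 in wild type. All 7 were higher in double knockout minus Dnmt2-/-, with a median of 1.31 and 5 genes at 2-fold. Of the 5 macrophage markers on the array 4 were detected in both livers, with a summed signal of 2141 in the Nsun2-/- liver and 1817 in wild type. The part of macrophage content in these values was not tested.

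**Figure D4:**
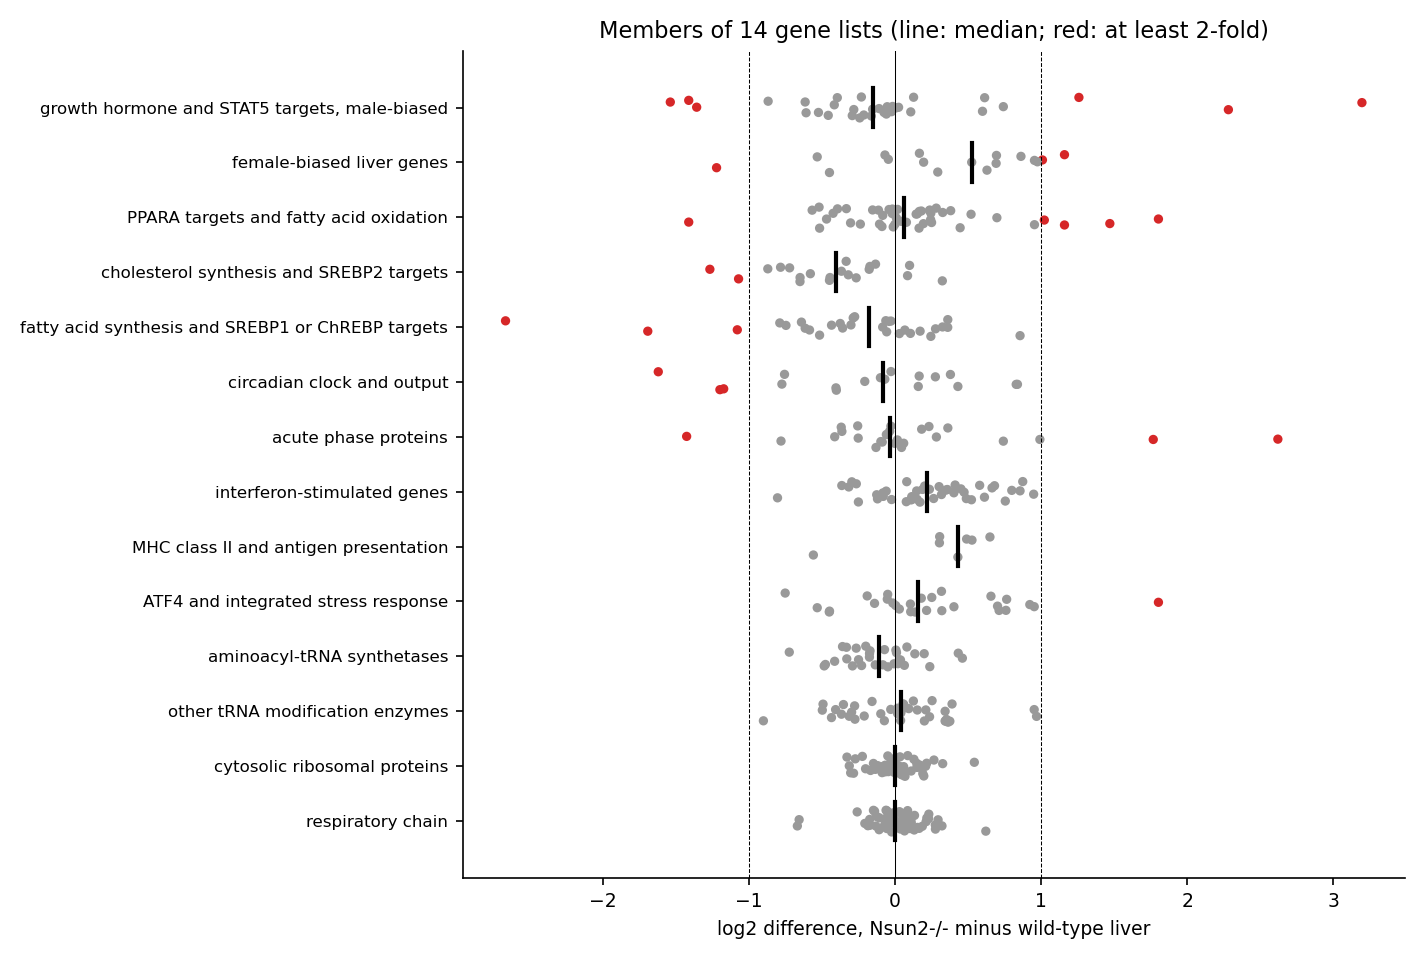
Log2 difference, Nsun2-/- minus wild-type liver (horizontal axis), of each detected member of selected gene lists, 1 list a row. Black lines are medians and red points genes at least 2-fold apart. Cholesterol synthesis genes have a median of −0.40, while the medians of ribosomal proteins and the respiratory chain sit at 0. Female-biased genes have a median of 0.53 over the detected members shown, and of 0.07 with no filter on detection.

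By list median, the machinery of translation and of tRNA, on which Nsun2 acts, lay close to wild type. Cytosolic ribosomal proteins had 25 genes higher and 25 lower among 51 listed, with a median of 0.00 and 0 at 2-fold. Rps3a1, a ribosomal protein left out of that list, was 2.42-fold higher, at 9.65 in the Nsun2-/- liver and 8.37 in wild type. It differed by −1.43 in double knockout minus Dnmt2-/-. Subunits of the respiratory chain were 35 higher and 33 lower among 69, with 0 at 2-fold. Aminoacyl-tRNA synthetases, which charge tRNAs, were 12 higher and 20 lower among 32, with a median of −0.11, from Aars2 at −0.72 to Hars at 0.46. Other tRNA modification enzymes were 23 higher and 16 lower among 39, with a median of 0.04, from Dus2, a dihydrouridine synthase, at −0.90 to Thumpd1, a cofactor of tRNA acetylation, at 0.97. Of 23 factors of tRNA cleavage and decay, Pop1, a subunit of RNase P, alone reached 2-fold, at 1.01 or more. The other Pop1 probe, not detected, differed by −0.02. Mrps27 (−1.89) was the 1 gene at 2-fold among 68 mitochondrial ribosomal proteins and Paip1 (1.94) among 35 translation factors.

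Targets of ATF4, the effector of the integrated stress response, were 19 higher and 9 lower among 28, with a median of 0.16. Fgf21 passed 2-fold, while Asns, the asparagine synthetase, differed by 0.95 in Nsun2-/- minus wild type and 1.41 in double knockout minus Dnmt2-/-, and Atf4 itself by 0.92 and 0.76. Fgf21 was lower in double knockout minus Dnmt2-/- (−1.71), where the list had 14 genes higher and 11 lower and a median of 0.03. Genes of the urea cycle and amino acid breakdown were 15 higher and 31 lower among 47, with a median of −0.10 and 0 at 2-fold, the lowest being Prodh (1.99-fold lower), Bhmt (1.94-fold) and Ahcy (1.87-fold). Glucose metabolism genes had a median of −0.21, with Slc2a2 (−1.11), Klf15 (−0.85) and G6pc (−0.76) lower, and Cish, also in that list, higher. Cytochrome P450 genes of families 1 to 3 were 15 higher and 13 lower among 28, with a median of 0.02. They included 3 at least 2-fold higher, Cyp2j9 (1.26), Cyp2b23 (1.02) and Cyp2a5, and 0 lower. In double knockout minus Dnmt2-/- 9 of the list were higher and 18 lower, with 0 at 2-fold. In all, 42 of the 1091 list genes detected differed at least 2-fold (3.85%), 23 higher and 19 lower, against 2.89% of all genes. List members were chosen with earlier results of these data known, which can itself raise that share.

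Nsun2 lies on chromosome 13. Within 5 Mb of it 22 genes were detected, 10 higher and 11 lower, with a median of −0.0098. Fastkd3 and Zfp738 were the 2 genes at least 2-fold lower, 0 were higher, and both were also lower in double knockout minus Dnmt2-/-. Over all 8949 genes compared, 2.89% differed at least 2-fold and 31 did so in the same direction in both pairs. Of 310 genes compared on chromosome 13, 20 (6.45%) differed at least 2-fold, and 6 did so in the same direction in both pairs, among them Tpmt, Gadd45g and Inhba. Chromosome 4 had 31 of 546 (5.68%), of which 8 recurred in the same direction, among them Casp9, Mul1 and Cyp4a12b, and chromosome 8 had 2 of 494 (0.405%). Stretches of the genome inherited from different parental strains cannot be told apart from loss of Nsun2 in these arrays.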

How the data were processed

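Raw intensity was deposited per probe and array on a linear scale with, per the file headers, a detection p-value beside it. A further table holds the authors' processed intensity values, with its normalization not given in the sources used here. Its values rank as the intensities do (rank correlation at least 0.999) on a linear scale without centring, and its medians were 107.8 for the Nsun2-/- liver and 107.9 for the wild-type liver. Per the labels' protocols, RNA was extracted with Trizol and labelled with biotin. In R 4.3.3 with limma 3.58.1, intensities were corrected by normexp from the detection p-values with an offset of 16, log2-transformed and quantile-normalized across 8 arrays. Signals and differences are on this log2 scale, and folds are their powers of 2.

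The platform annotation gave 1 symbol for 23898 probes, several for 0 and none for 1710. Of these probes 23882 matched a RefSeq table of GRCm38.p6, with 0 symbols changed. A gene was represented by its probe of highest mean signal, a choice among probes for 4757 genes. An undetected value was raised to the lowest detected signal of its array where it lay lower, and the fold is then "at least". Where it lay higher it was kept as measured, so that signal is not a strict detection limit. No difference is given for 43 genes. Tests were made in limma at a Benjamini-Hochberg adjusted p of 0.05 with a nested model of sample type and both genotypes, and were checked on simulated data. The number of arrays limits the precision.

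Genes named in the text are those targeted and their relatives, the 15 largest measured differences and 8 largest bounds in each direction, the leading and 2-fold members of each list, the leading limma results and genes near Nsun2; others are named as members of a counted set. The members and the 40 pathway and 12 marker lists were chosen with earlier results of these data known.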

Additional observations from a re-analysis of the deposited data

How the results depend on the processing

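The count of genes at least 2-fold apart was 259 as reported, 44 without background correction, 47 with the authors' deposited values, 75 with an offset of 50, 142 with scaling to the same median, 147 with quantile normalization over the livers alone, 138 when detection was required on both arrays and 1254 at 1.5-fold. The share of these calls that was higher in the Nsun2-/- liver ranged from 45.1% to 56.0%. For the gene lists the count was 42 as reported, 17 without background correction and 20 with the authors' values. For genes past 2-fold the same way in both pairs it was 31 as reported, 11 with no background correction, 17 with an offset of 50 and 11 with the authors' values. Low signals are compressed, by construction, when background stays in. Across 7 alternatives of background, scaling and choice of probe, 40 genes stayed at least 2-fold apart in the same direction, 22 higher and 18 lower; they include Tpmt, A2ml1, Cish, Apcs, Socs2, Gadd45g, Bcl6, Cyp4a12b, Prm1, Olig1, Hmgcs1 and Slc2a2, while Casp9, Rgs5 and Nr1d1 fell short under at least 1. Of the 40, 15 differed by 2-fold in the same direction in double knockout minus Dnmt2-/- liver and 12 in the opposite one. No gene at least 2-fold apart and no list with a median beyond 0.2 changed sign, the only cases in which a reversal was recorded. Just 5 of the 40 list medians lay beyond 0.2. Of 107 followed genes, 49 fell below 2-fold with the authors' values and 51 without background correction. For the list of female-biased genes the median of 0.53 was 0.18 with the authors' values and 0.07 with no filter on detection. limma made 0 calls under every alternative run, with a smallest adjusted p from 0.0639 to 0.297 for the Nsun2 effect in liver and from 0.243 to 0.882 for its difference from fibroblasts; leaving out a liver array gave 0.244 to 0.297, also with 0 calls. Then the effect rests on 1 liver pair and the lone arrays are assumed to vary like the others. No paired analysis was possible because each group has 1 array and the groups share only the replicate number 1.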
